A study of Mus musculus with 18 samples.

Results

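The respiratory chain of mitochondria was examined at the level of its nuclear-encoded mRNAs in natural killer (NK) cells that carry or lack the transcription factor Runx3. The genes were chosen by symbol: every gene whose symbol starts with Nduf, Uqcr, Cox4 to Cox8 or Atp5, together with Sdha, Sdhb, Sdhc and Sdhd. This gave 89 of the 19938 genes that have a probe set with a single symbol, each represented by its probe set with the highest mean. They comprised 34 subunits of complex I, 7 assembly factors of complex I, 4 subunits of complex II, 8 of complex III, 11 of complex IV, 17 of the ATP synthase and 8 isoforms known mainly from muscle, lung, testis or hypoxic cells. NKp46+ cells were sorted from the spleens of ICR mice aged 6 weeks, all of which had received IL15/Ra complexes, in which the cytokine interleukin-15 is bound to its receptor alpha chain. The sort gates were CD27+CD11b- (immature, called CD27 here), CD27+CD11b+ (mature, called DP) and CD27-CD11b+ (mature, called CD11b). Each subset came from Runx3 +/+ mice (wild type, WT) and from Runx3 -/- mice (knockout, KO), with 3 arrays in each of the 6 groups. The labels give the sex as male or female. They name no animals behind the replicate numbers and say nothing of pooling, so p-values measure the spread between these samples, which may be technical. The arrays were Affymetrix Mouse Gene 1.0 ST, and values are the deposited log2 signals.

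The chain lies in the inner mitochondrial membrane. Complex I oxidises NADH and complex II oxidises succinate, both pass electrons through ubiquinone to complex III, cytochrome c carries them to complex IV, and the ATP synthase uses the resulting proton gradient to make ATP. Most subunits are encoded in the nucleus and imported, while a small core is encoded by mitochondrial DNA. The 13 mitochondrially encoded subunits had 0 probe sets under their own symbols and are not analysed here. In NK cells oxidative phosphorylation is known to support cytokine-driven growth and effector function. In bulk RNA, a lower share of cells with a transcript and less transcript per cell cannot be told apart.

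Nuclear respiratory chain genes are known for promoters that bind the factors NRF1, GABP (an ETS factor) and YY1. RefSeq promoter windows (GRCm38.p6), from 250 bases before the transcription start to the first 50 transcribed bases, were found for 73 of the 89 genes, giving 78 windows. Each window was searched on both strands for 4 motifs. The NRF1 core GCATGCGC was present in 12 of 78 windows (15.4%), against 2.71% of all 32851 promoter windows and 3.52% of the 21263 windows of protein-coding genes. The YY1 motif AAGATGGCG was present in 7 (8.97%, against 1.4% of all and 1.83% of protein-coding windows). The ETS motif CCGGAAGT was present in 5 (6.41%, against 3.89% and 5.15%), and the RUNX motif TGTGGT in 9 (11.5%, against 16.8% and 15%). The 4 windows below belong to genes that passed a test described further on and show a promoter with the NRF1 core (Sdhb, Ndufaf5), with the YY1 motif (Ndufc1) and with none of the 4 motifs (Ndufs5). Capitals mark the motifs.
Sdhb, chr4:140961021-140961320, plus strand: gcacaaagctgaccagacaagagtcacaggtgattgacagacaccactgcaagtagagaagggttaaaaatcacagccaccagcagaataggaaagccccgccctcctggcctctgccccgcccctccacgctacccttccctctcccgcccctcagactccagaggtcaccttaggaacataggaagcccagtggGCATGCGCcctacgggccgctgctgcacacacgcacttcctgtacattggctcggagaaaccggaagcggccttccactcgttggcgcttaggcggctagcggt
Ndufaf5, chr2:140170396-140170695, plus strand: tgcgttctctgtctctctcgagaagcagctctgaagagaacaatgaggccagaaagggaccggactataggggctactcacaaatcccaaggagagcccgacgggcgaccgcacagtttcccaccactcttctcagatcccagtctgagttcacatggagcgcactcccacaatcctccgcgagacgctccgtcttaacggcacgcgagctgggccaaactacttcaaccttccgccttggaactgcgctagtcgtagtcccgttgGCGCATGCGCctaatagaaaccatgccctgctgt
Ndufc1, chr3:51408906-51409205, minus strand: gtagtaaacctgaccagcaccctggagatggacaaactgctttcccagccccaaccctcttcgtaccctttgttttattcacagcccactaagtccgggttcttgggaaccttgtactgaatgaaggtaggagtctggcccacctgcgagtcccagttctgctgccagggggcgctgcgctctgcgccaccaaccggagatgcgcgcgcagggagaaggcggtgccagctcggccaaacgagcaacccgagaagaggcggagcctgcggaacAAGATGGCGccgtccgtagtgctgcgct
Ndufs5, chr4:123718137-123718436, minus strand: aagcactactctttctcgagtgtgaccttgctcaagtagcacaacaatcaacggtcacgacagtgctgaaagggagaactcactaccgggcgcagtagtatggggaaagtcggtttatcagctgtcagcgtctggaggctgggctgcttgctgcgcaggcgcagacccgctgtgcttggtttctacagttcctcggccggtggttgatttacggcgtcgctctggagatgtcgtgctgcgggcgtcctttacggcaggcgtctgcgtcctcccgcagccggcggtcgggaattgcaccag
The NRF1 core of Sdhb began 54 bases before the start. In Ndufaf5 the core was present on both strands in overlapping copies, beginning 17 and 19 bases into the transcript, and the YY1 motif of Ndufc1 began 23 bases into it. A match is a run of letters, not a measured binding site. The 12 genes with the NRF1 core had a median KO minus WT difference, averaged over subsets, of 0.14 log2, and the 61 others with a window had 0.06. The 5 genes with the ETS motif had a median of -0.03 and the 68 without it 0.08. The 7 genes with the YY1 motif had 0.07 and the 66 without it 0.08. The 9 genes with the RUNX motif had a median of 0.06 and the 64 without it 0.08. These medians were not tested against each other.

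Some arrays stood apart. All values lay between 3.91 and 14.97, and pairs of arrays correlated over probe sets with r of 0.960 to 0.995. Runx3 itself was lower on the KO arrays, with no overlap in any subset (10.73 to 11.46 on all KO and 11.39 to 11.85 on all WT arrays). The part of the gene deleted is not given, so this checks the genotype only weakly. Ncr1 (NKp46) lay between 13.45 and 13.81 on all arrays, and Cd27 and Itgam (CD11b) followed the gates. The median deviation of 24 cell cycle genes from their mean over arrays was 2.30 to 2.71 on the 3 arrays of KO replicate 3. It was -0.60 to 0.41 on the other KO arrays and -1.03 to -0.54 on the WT arrays. In each subset every KO array thus lay above every WT array, and KO replicate 3 was far above the rest. On CD11b KO replicate 3 the myeloid gene Lyz2 reached 12.27 and the MHC class II chaperone Cd74 11.68, against at most 5.32 and 5.26 on the WT CD11b arrays. CD11b KO replicate 1 had 7.96 and 6.97 for them. The mean log2 level of 15 macrophage and neutrophil markers was 8.57 on CD11b KO replicate 3 and 5.35 to 5.81 on all other arrays. The mean level of 9 T cell markers was 7.16 to 7.56 in WT CD27, 6.62 to 6.90 in KO CD27 and 5.76 to 5.95 in WT CD11b cells. Cd3e was at 8.14 to 11.09 on the WT CD27 arrays. The markers did not move as 1 group. Between KO and WT CD27 cells 2 of the 9 passed as lower, Cd3e and Cd3d, and 0 as higher. Cd4 went the other way, at 4.90 to 5.06 on the WT and 5.65 to 6.71 on the KO CD27 arrays. Cd3g was at 9.75 to 12.62 on all arrays. Xist, expressed from the inactive X chromosome of females, was low (5.13 to 5.69) on 9 arrays, those numbered 1 in WT and those numbered 1 or 2 in KO, and high (12.48 to 13.00) on the other 9. The Y-linked gene Eif2s3y was 11.02 to 11.15 on the arrays with low Xist. On those with high Xist it was 4.86 to 5.53 in WT replicate 3, 6.44 to 8.12 in WT replicate 2 and 6.83 to 9.10 in KO replicate 3. WT replicate 2 and KO replicate 3 thus lay in between, and whether their samples mixed the sexes was not tested. The part of these differences in the results below was not tested, beyond the values given without KO replicate 3 and with the Xist level in the model.

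Wide differences between the 6 groups were rare among respiratory chain transcripts, but 60 of the 89 genes varied more than the median gene. The range of the 6 group means had a median of 0.26 log2 over the 89 genes, against 0.21 over all genes, and the median SD within a group was 0.13 against 0.12. Only 1 gene, Ndufs5, had group means more than 1 log2 unit apart (1.12% of the 89), against 1021 of all genes (5.12%).

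The first comparison asked which of these genes differ between KO and WT cells of the same subset. With limma and Benjamini-Hochberg adjustment over all 35399 probe sets, 0 of the 89 genes passed an adjusted p of 0.05 in CD27 cells (0.907% of all probe sets passed), 0 in DP cells (0.395%) and 0 in CD11b cells (1.29%). At an unadjusted p under 0.05, 15 genes differed in CD27 cells (11.6% of all probe sets), 12 in DP cells (9.64%) and 14 in CD11b cells (13%). Of these, 14 of 15 were positive in CD27, 10 of 12 in DP and 7 of 14 in CD11b cells. The lowest adjusted p was 0.144 for Ndufs5 in CD27, 0.264 for Sdhb in DP and 0.112 for Cox4i1 in CD11b cells. The median half-width of the 95% interval of a gene's difference, before any adjustment, was 0.22 log2.

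In the 2 CD27+ subsets the differences leaned to the KO side. The median KO minus WT difference of the 89 genes was 0.09 log2 in CD27 cells, with 69 of 89 positive (77.5%, against 48.2% of all genes, whose median was -0.01). In DP cells the median was 0.11, again with 69 positive (77.5%, against 45% of all genes). In CD11b cells the median was -0.0001, with 44 of 89 positive (49.4%, against 44.5% of all genes). The 3 KO arrays lay above the 3 WT arrays for 23 genes and below for 3 in CD27 cells (29.2% of the 89 did not overlap, against 16.4% of all probe sets). In DP cells 9 lay above and 2 below (12.4%, against 14.6%), and in CD11b cells 6 above and 9 below (16.9%, against 18.7%). Without KO replicate 3 the median fell to 0.05 in CD27 cells and -0.05 in CD11b cells and was 0.09 in DP cells. Leaving out DP WT replicate 1, whose values were the highest of its group, moved the DP median to 0.19.

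**Figure D1:**
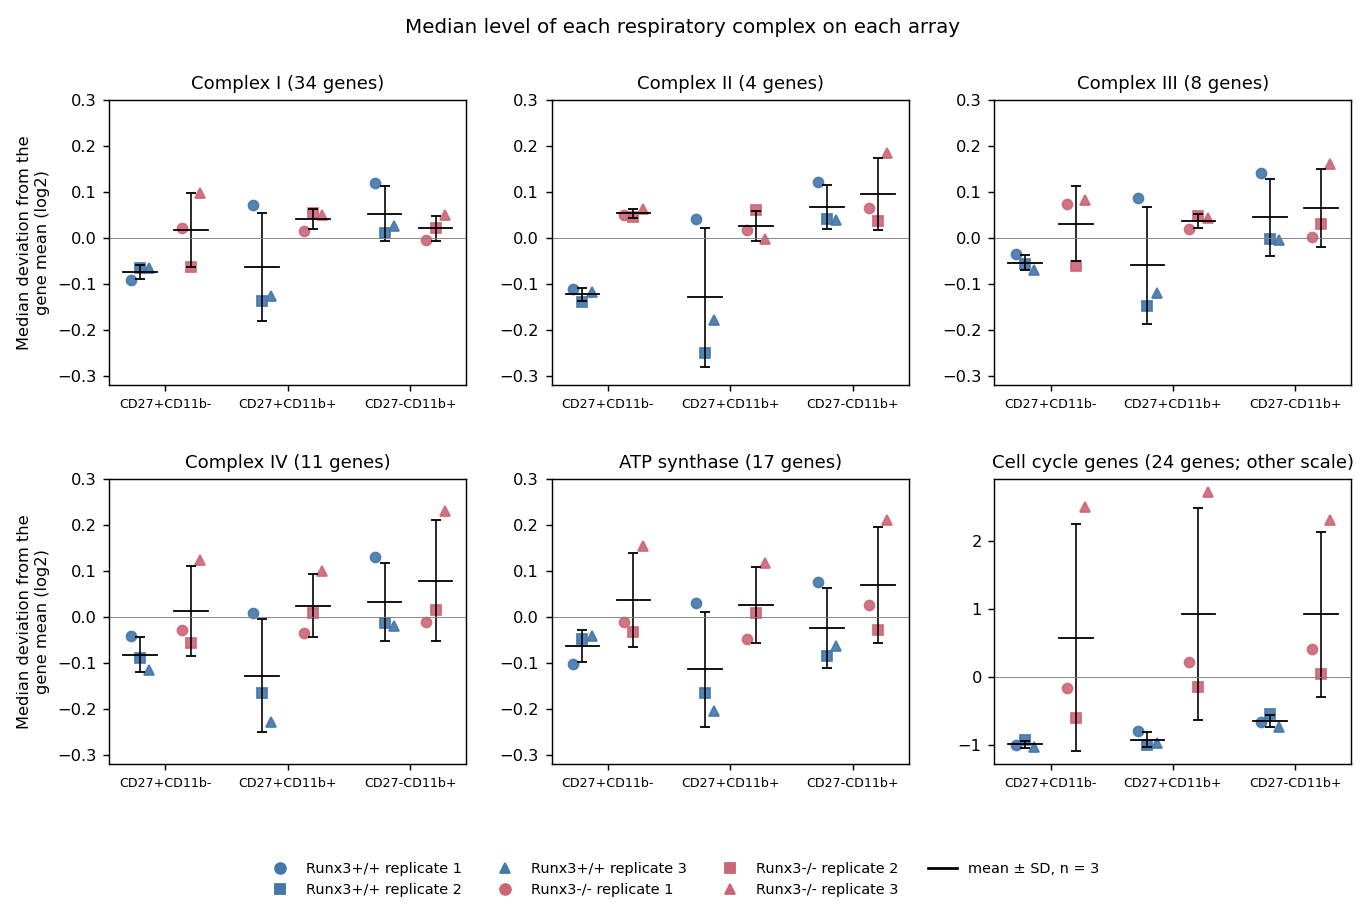
Median deviation (log2) of the genes of each complex from their own means over the 18 arrays, by subset on the horizontal axis, with 1 symbol per array and bars for mean ± SD of 3 arrays; the last panel shows 24 cell cycle genes on a wider scale. Complex II sat at -0.14 to -0.11 on the WT CD27 arrays and 0.05 to 0.06 on the KO CD27 arrays, DP WT replicate 1 lay above the other WT DP arrays in each complex, and KO replicate 3 was highest of its group for complex IV and the ATP synthase in each subset.

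The plot of complex medians by array shows how far single arrays carried the group differences. For all 89 genes the median deviation was -0.07, -0.06 and -0.06 on the WT CD27 arrays and 0.02, -0.05 and 0.10 on the KO CD27 arrays. It was 0.05, -0.13 and -0.12 on the WT DP arrays and -0.01, 0.01 and 0.07 on the KO DP arrays. WT DP replicate 1 thus lay within the range of the KO arrays of its subset, and the other WT DP arrays below it. In CD11b cells the values were 0.10, 0.00 and 0.01 in WT and 0.00, 0.00 and 0.07 in KO, with overlap.

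Averaged over the 3 subsets, 8 of the 89 genes passed (8.99%), a share near that of all probe sets (8.08%) and of all genes at 1 probe set each (9.22%). Of the 8, 6 were higher in KO cells (2.8% of all probe sets) and 2 were lower (5.28%). The genes that rose were Sdhb, Cox4i1, Atp5mpl, Ndufv1, Ndufs8 and Ndufb7, and those that fell were Ndufs5 and Ndufaf5. The median difference of all 89 was 0.07 log2 with 64 positive (71.9%, against 45% of all genes, whose median was -0.01), and 0.04 with 55 positive without KO replicate 3. The average sets 9 arrays against 9, although arrays of 1 genotype with the same number deviated together (17 of 18 such pairs had r over 0.1) and may share animals. When the 3 arrays with the same genotype and number were first averaged, 0 of the 89 genes passed (0.201% of all probe sets). With a random block for these arrays 3 genes passed, Sdhb, Cox4i1 and Atp5mpl (4.48% of all probe sets). Without KO replicate 3, 5 of the 89 passed (6.31% of all probe sets): Sdhb, Cox4i1 and Ndufs5 of those above, with Ndufa6 (0.25, adjusted p = 0.0446) and Ndufaf4 (-0.30, adjusted p = 0.0389). With the Xist level in the model 10 of the 89 passed (12.4% of all probe sets). These were 7 of the 8, without Ndufb7 (adjusted p = 0.0593), and Sdha, Atp5g2 and Atp5g3.

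**Figure D2:**
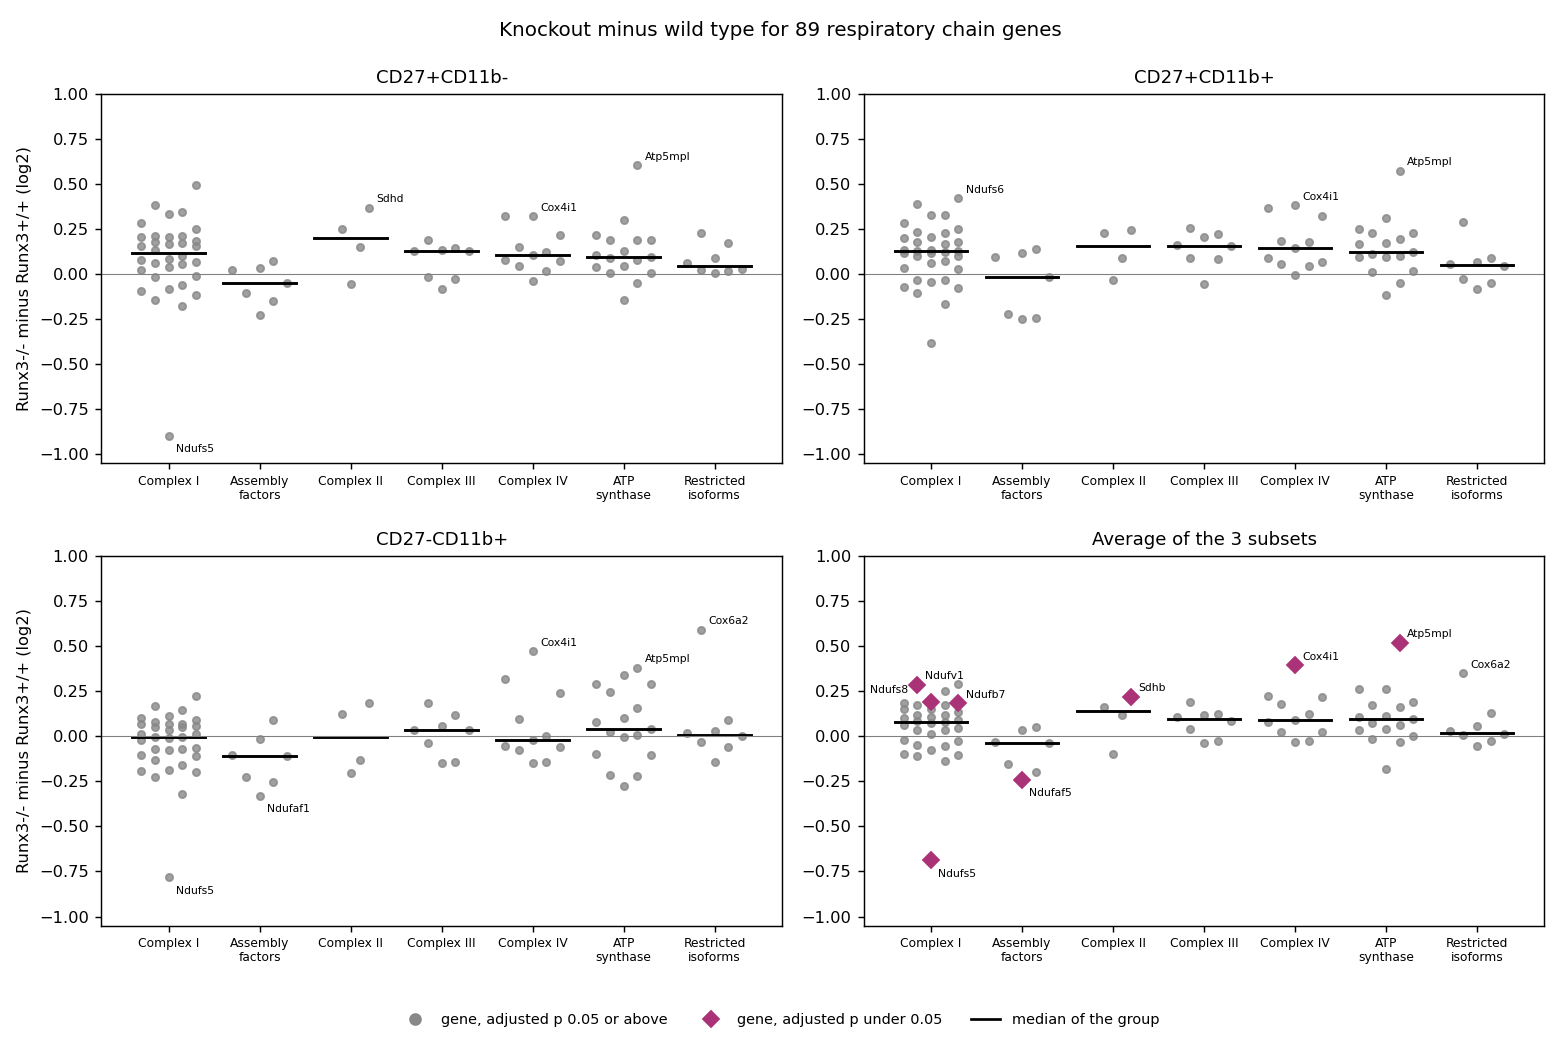
KO minus WT difference (log2) of each of the 89 genes by complex, in the 3 subsets and averaged over them; grey circles did not pass, purple diamonds had an adjusted p under 0.05 and black lines are medians. Diamonds appear only in the averaged panel, where 8 genes lie between -0.69 (Ndufs5) and 0.52 (Atp5mpl).

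Complex II, succinate dehydrogenase, links the tricarboxylic acid cycle to the chain. Sdhb, its iron-sulfur subunit, was higher in KO cells by 0.22 log2 on average (SE 0.04, 1.16-fold, 95% interval 1.10 to 1.24, adjusted p = 0.00464), and the KO arrays lay above the WT arrays within every subset. In CD27 cells Sdhb was 9.97, 9.87 and 10.03 on the WT arrays and 10.22, 10.20 and 10.19 on the KO arrays. In DP cells it was 10.16, 9.92 and 10.05 against 10.30, 10.30 and 10.20, and in CD11b cells 10.22, 10.19 and 10.22 against 10.41, 10.27 and 10.49. The 2 genotypes did not overlap within a subset, but WT CD11b cells had the level of KO CD27 cells. The call held in the 18 fits that left out 1 array (highest adjusted p = 0.0123) and was lost when arrays of a sample were averaged first (adjusted p = 0.208).

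The other complex II genes differed in direction. Sdhd, a membrane anchor subunit, had KO minus WT differences of 0.37 in CD27 (adjusted p = 0.148), 0.25 in DP (adjusted p = 0.481) and -0.13 in CD11b cells (adjusted p = 0.687). Sdhc, the other anchor, had 0.12 on average (adjusted p = 0.309). Sdha, the flavoprotein that binds succinate, had -0.20 in CD11b cells (adjusted p = 0.155) and -0.10 on average (adjusted p = 0.13), so the 4 subunits did not share a sign. Sdha ranged from 10.66 to 10.98 over the 18 arrays.

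**Figure D3:**
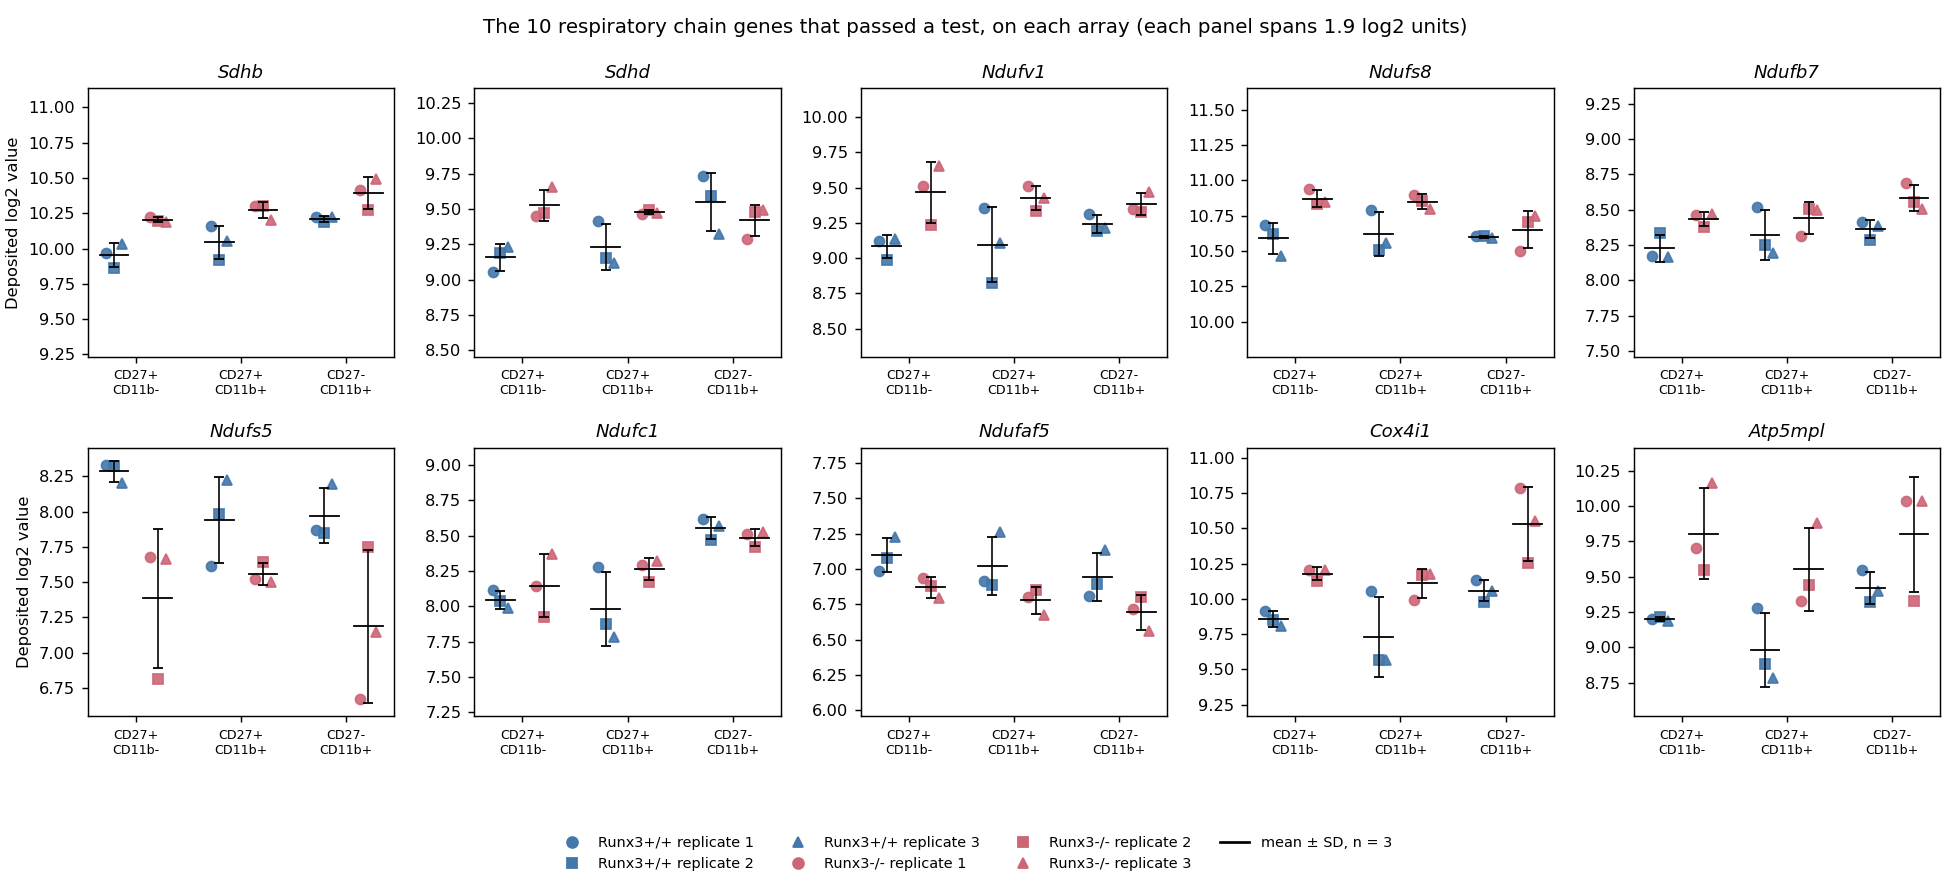
Deposited log2 values on each array of the 10 genes that passed a test, by subset and genotype, with mean ± SD of 3 arrays; every panel spans the same number of log2 units. Sdhb has KO and WT arrays that do not overlap in any subset. Those of Ndufaf5 do not overlap in CD27 and DP cells and are in effect tied in CD11b cells (0.0028 apart). Ndufs5 shows the widest KO spread, from 6.67 to 7.75 in CD11b cells.

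Complex I takes electrons from NADH and is the largest complex of the chain. Of its 34 subunits measured, 3 rose, 1 fell and 30 did not pass in the average over subsets. Of all probe sets 2.8% rose and 5.28% fell. The median difference of the 34 subunits was 0.08. Ndufv1, the subunit that binds NADH and flavin, was higher in KO cells by 0.28 log2 (SE 0.07, 1.22-fold, 1.10 to 1.35, adjusted p = 0.0229). Its WT arrays were 9.12, 8.99 and 9.14 in CD27, 9.36, 8.83 and 9.11 in DP and 9.31, 9.19 and 9.22 in CD11b cells. Its KO arrays were 9.51, 9.23 and 9.66, then 9.51, 9.34 and 9.43, then 9.35, 9.33 and 9.47. The genotypes did not overlap in CD27 and CD11b cells and overlapped in DP cells. The call was lost without CD27 WT replicate 2 (adjusted p = 0.0514) and without KO replicate 3 (0.24, adjusted p = 0.102).

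Ndufs8, an iron-sulfur core subunit, was higher by 0.19 log2 (SE 0.05, 1.14-fold, adjusted p = 0.0285). Ndufs8 was 10.68, 10.62 and 10.47 on the WT and 10.94, 10.83 and 10.84 on the KO arrays of CD27 cells. Its means in CD11b cells were 10.60 ± 0.01 in WT and 10.65 ± 0.13 in KO (SD, n = 3), and there the arrays overlapped. Ndufb7, an accessory subunit, was higher by 0.18 log2 (SE 0.05, 1.14-fold, adjusted p = 0.0405), with group means of 8.23, 8.32 and 8.36 in WT and 8.44, 8.44 and 8.58 in KO cells of CD27, DP and CD11b. The Ndufs8 call was lost in 8 and the Ndufb7 call in 12 of the 18 fits without 1 array (highest adjusted p of 0.0622 and 0.0864, both without DP WT replicate 3). Both were lost without KO replicate 3 (adjusted p = 0.0774 and 0.108). Ndufs1, the largest core subunit, had an average difference of 0.05 (adjusted p = 0.583).

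Ndufs5, an accessory subunit facing the intermembrane space, had the widest difference of the 89 genes and went the other way. It was lower in KO cells by 1.61-fold on average (log2 difference -0.69, SE 0.15, 1.29 to 2.01, adjusted p = 0.0109). In CD27 cells Ndufs5 was 8.33, 8.32 and 8.20 on the WT and 7.68, 6.82 and 7.67 on the KO arrays. In DP cells it was 7.62, 7.98 and 8.23 against 7.52, 7.65 and 7.50, and in CD11b cells 7.87, 7.85 and 8.19 against 6.67, 7.75 and 7.15. The genotypes separated in CD27 and CD11b cells and overlapped in DP cells. The KO spread was wide, with an SD of 0.49 in CD27 and 0.54 in CD11b cells. A second probe set that carries the symbols of Ndufs5 and its pseudogene Ndufs5-ps differed by -0.46 (adjusted p = 0.006), and signal from the gene and from the pseudogene cannot be told apart there. The Ndufs5 call held in the 18 fits without 1 array (highest adjusted p = 0.0271). It was lost with the random block for same-numbered arrays (adjusted p = 0.0579) and when arrays of a sample were averaged first (adjusted p = 0.066).

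Among other complex I subunits, Ndufs6, an accessory zinc-binding subunit, had the largest difference of the complex in DP cells (0.42, adjusted p = 0.403) and 0.29 on average (adjusted p = 0.068). Ndufs6 was 6.75, 6.89 and 6.99 on the WT CD27 arrays and 7.14, 7.16 and 7.36 on the KO CD27 arrays, but WT DP replicate 1 was at 7.38, level with the KO DP arrays. The genotypes thus separated in CD27 cells and overlapped in DP cells.

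Assembly factors help to build complex I and are not part of it. Of the 7 measured, 0 rose (2.8% of all probe sets) and 1 fell (5.28%). Their median difference was -0.04 on average with 2 of 7 positive (45% of all genes). Ndufaf5, a methyltransferase-like factor that modifies a complex I core subunit, was lower in KO cells by 0.24 log2 (difference -0.24, SE 0.06, 1.18-fold, 1.07 to 1.30, adjusted p = 0.0333). Its means (± SD, n = 3) were 7.10 ± 0.12 in WT and 6.87 ± 0.07 in KO for CD27, 7.02 ± 0.21 and 6.78 ± 0.09 for DP, and 6.94 ± 0.17 and 6.69 ± 0.13 for CD11b. The lowest WT array exceeded the highest KO array by 0.048 in CD27 and 0.035 in DP cells. In CD11b cells the nearest arrays were in effect tied (0.0028 apart). The call was lost in 10 of the 18 fits without 1 array (highest adjusted p = 0.0716, without DP KO replicate 3) and without KO replicate 3 (-0.19, adjusted p = 0.166). Ndufaf2 had -0.25 in DP cells (adjusted p = 0.438) and Ndufaf1 -0.33 in CD11b cells (adjusted p = 0.489). Between CD11b and CD27 cells the largest differences were those of Ndufaf7 in WT (0.22, adjusted p = 0.411) and Ndufaf1 in KO cells (-0.20, adjusted p = 0.72).

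Complex III transfers electrons from ubiquinol to cytochrome c, and 0 of its 8 genes passed (8.08% of all probe sets in the average over subsets). The median difference was 0.10 on average, with 6 of 8 positive (45% of all genes), and 0.06 without KO replicate 3. Uqcrq, a small ubiquinone-binding subunit, had the largest average difference (0.19, adjusted p = 0.151), and the core protein Uqcrc1 had 0.12 (adjusted p = 0.0513). Uqcrc1 was 10.19, 10.15 and 10.13 on the WT and 10.30, 10.29 and 10.29 on the KO arrays of CD27 cells. Uqcrc2, the other core protein, had 0.19 in CD27 (adjusted p = 0.384) and -0.14 in CD11b cells (adjusted p = 0.493). The Rieske iron-sulfur protein Uqcrfs1 had 0.12 on average (adjusted p = 0.441).

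Complex IV, cytochrome c oxidase, passes electrons to oxygen. Of its 11 genes 1 passed in the average, against 8.08% of all probe sets. The median difference was 0.09 with 9 of 11 positive (45% of all genes), and 0.01 with 6 of 11 positive without KO replicate 3. Cox4i1, the ubiquitous isoform of subunit 4, which binds adenine nucleotides, was higher in KO cells by 0.39 log2 (SE 0.08, 1.31-fold, 1.17 to 1.47, adjusted p = 0.00624). On the CD27 arrays Cox4i1 was 9.91, 9.85 and 9.81 in WT and 10.20, 10.13 and 10.20 in KO. The DP arrays had 10.06, 9.56 and 9.57 against 9.99, 10.17 and 10.17, and the CD11b arrays 10.13, 9.98 and 10.06 against 10.78, 10.26 and 10.55. The genotypes separated in CD27 and CD11b cells, and 1 WT DP array lay within the KO range. The 2 highest values were those of CD11b KO replicates 1 and 3, the CD11b arrays with raised Lyz2 and Cd74. Without KO replicate 3 the difference was 0.37 (adjusted p = 0.0382). The Cox4i1 call was lost when arrays of a sample were averaged first (adjusted p = 0.174).

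The other complex IV genes showed smaller or less regular differences. Cox5a had 0.22 on average (adjusted p = 0.249), and its 3 highest values, 8.44, 8.29 and 8.30, were those of KO replicate 3. Ndufa4, long listed under complex I and now counted with complex IV, had 0.22 (adjusted p = 0.339), with 9.68, 9.59 and 9.56 on the arrays of KO replicate 3. Cox7a2l, which joins complexes into supercomplexes, had 0.32 in CD11b cells (adjusted p = 0.295), and Cox6b1 0.24 (adjusted p = 0.248). Cox5b, Cox6a1, Cox7a2 and Cox8a had average differences of 0.02, 0.08, 0.09 and -0.03, with adjusted p from 0.504 to 0.92.

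The ATP synthase consists of a catalytic F1 head and a membrane-bound Fo part joined by stalks. Of its 17 genes 1 passed in the average, against 8.08% of all probe sets. The median difference was 0.10 with 14 of 17 positive (45% of all genes). Without KO replicate 3 the median was 0.04 with 11 of 17 positive. Atp5mpl, a small proteolipid subunit of the Fo part, was higher in KO cells by 0.52 log2 (SE 0.12, 1.43-fold, 1.20 to 1.71, adjusted p = 0.016). Atp5mpl was 9.20, 9.22 and 9.18 on the WT and 9.70, 9.54 and 10.16 on the KO arrays of CD27 cells, 9.28, 8.88 and 8.78 against 9.33, 9.44 and 9.88 in DP cells, and 9.55, 9.32 and 9.40 against 10.04, 9.33 and 10.03 in CD11b cells. KO replicate 3 was the highest KO array in CD27 and DP cells, and 1 KO array lay within the WT range in CD11b cells. Without KO replicate 3 the difference was 0.36 (adjusted p = 0.0694). The Atp5mpl call was also lost when arrays of a sample were averaged first (adjusted p = 0.285). The F1 subunits Atp5a1, Atp5b and Atp5c1 had average differences of 0.11, 0.04 and 0.17 (adjusted p = 0.233, 0.683 and 0.108).

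The tissue-restricted isoforms replace ubiquitous subunits in particular tissues. For 7 of the 8 the signal stayed between 4.68 and 5.93 on every array, and no difference passed. Cox4i2, the lung and hypoxia-linked isoform of subunit 4, lay between 5.59 and 5.84, while its ubiquitous partner Cox4i1 rose in KO cells. Cox6a2, known from heart and skeletal muscle, varied more, from 6.50 to 7.76. In CD27 cells Cox6a2 was 6.98, 7.01 and 6.95 on the WT and 7.01, 7.42 and 7.01 on the KO arrays, and in DP cells 6.96, 6.69 and 6.94 against 7.0, 7.26 and 7.20. In CD11b cells it was 6.60, 6.63 and 6.50 against 6.97, 6.77 and 7.76. The nearest KO and WT arrays were in effect tied in CD27 cells (0.00037 apart), and the lowest KO array exceeded the highest WT array by 0.036 in DP and 0.14 in CD11b cells; the average difference of 0.35 did not pass (adjusted p = 0.0704). The highest value was that of CD11b KO replicate 3, the array with the high myeloid markers. Ndufa4l2, a hypoxia-responsive relative of Ndufa4, lay between 4.68 and 4.99, Cox6b2 had 0.13 on average (adjusted p = 0.541) and Cox7a1, Cox8b and Cox8c had -0.06, 0.06 and 0.03.

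The second comparison asked how the chain differs between NK subsets in each genotype. In WT cells 2 of the 89 genes were higher in CD11b than in CD27 cells (2.25%, against 5% of all probe sets; 2.88% of all probe sets were higher) and 0 were lower (2.13% of all were lower). At an unadjusted p under 0.05, 18 were positive and 2 negative. The share of all probe sets at that threshold was not taken for this comparison, so these counts have no background beside them. The median difference was 0.10, with 67 of 89 positive (75.3%, against 60.3% of all genes and their median of 0.03). Between DP and CD27 cells 0 passed (0.557% of all probe sets) and 3 reached an unadjusted p under 0.05 (8.25%). Between CD11b and DP cells 0 passed (0.525%), while 16 reached an unadjusted p under 0.05, all of them positive (8.36% of all probe sets). Within a genotype, arrays with the same number deviated together (r over 0.1 for every number in 5 of the 6 pairs of subsets, DP and CD27 in WT being the exception). With genotype and number as a block, 10 of the 89 passed between WT CD11b and CD27 cells (10.9% of all probe sets): Ndufc1, Sdhd, Sdhb, Ndufb6, Ndufa13, Ndufc2, Cox5b, Atp5c1 and Atp5h, which were higher, and Ndufab1, which was lower. As a random block it gave 7 (8.51%). Between WT CD11b and DP cells Ndufc1, Ndufc2 and Atp5h passed with the block (2.4%), and 2 with the random block (1.38%). The counts thus rose with the block, and so did those of all probe sets. The mean level of the T cell markers was lower in the WT CD11b than in the WT CD27 arrays, as given above. The part of these markers in the differences between subsets was not tested.

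Ndufc1, a small membrane-arm subunit of complex I, was higher in WT CD11b than in WT CD27 cells by 0.51 log2 (SE 0.12, 1.42-fold, adjusted p = 0.0258). Its values were 8.11, 8.04 and 7.99 on the CD27, 8.28, 7.87 and 7.78 on the DP and 8.62, 8.47 and 8.57 on the CD11b arrays, and the last group lay above both others. A second probe set of Ndufc1 had 0.46 (adjusted p = 0.086). In KO cells Ndufc1 had 0.34 (adjusted p = 0.208), from 8.15 ± 0.22 to 8.49 ± 0.06. With the block within genotype the adjusted p was 0.00473. Without the block the call was kept in 1 of 6 fits that left out an array of the 2 groups, that without CD27 WT replicate 1 (highest adjusted p = 0.102, without CD11b WT replicate 1).

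Sdhd was higher in WT CD11b than in WT CD27 cells by 0.39 log2 (SE 0.11, 1.31-fold, adjusted p = 0.0483). Its WT values were 9.05, 9.19 and 9.23 in CD27, 9.42, 9.15 and 9.12 in DP and 9.74, 9.59 and 9.33 in CD11b cells. Its KO values were 9.45, 9.47 and 9.65, then 9.47, 9.49 and 9.47, then 9.29, 9.48 and 9.49, with CD11b minus CD27 at -0.11 (adjusted p = 0.755). Each KO CD27 array thus lay above each WT CD27 array and within the range of the WT CD11b arrays. With the block within genotype the adjusted p was 0.0321. Without it the call was kept in 1 of 6 fits without an array, that without CD11b WT replicate 3 (highest adjusted p = 0.208, without CD11b WT replicate 1), and was lost without KO replicate 3 (adjusted p = 0.0524).

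Several members had differences that did not pass without the block. Ndufb6, an accessory complex I subunit, had the largest difference between WT CD11b and CD27 cells (0.76, adjusted p = 0.0898, with the block 0.0218), with 9.56, 9.59 and 9.75 in CD27 and 10.85, 10.28 and 10.04 in CD11b cells. In KO cells it had -0.05 (adjusted p = 0.964). Sdhb had 0.26 in WT (adjusted p = 0.0527, with the block 0.0305) and 0.19 in KO cells (adjusted p = 0.234). Atp5c1, the central stalk subunit of the ATP synthase, had 0.35 in WT (adjusted p = 0.0781, with the block 0.0393) and 0.23 in KO cells (adjusted p = 0.366). Ndufa4 had 0.43 in WT (adjusted p = 0.316), Uqcrc2 0.23 (adjusted p = 0.14) and Cox6a2 -0.40 (adjusted p = 0.32). By complex, the WT medians were 0.15 for complex I, 0.18 for complex II, 0.07 for complex III, 0.10 for complex IV, 0.06 for the ATP synthase and -0.05 for the assembly factors.

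In KO cells 0 genes passed between CD11b and CD27 (2.07% of all probe sets), 0 between DP and CD27 (0.0198%) and 0 between CD11b and DP cells (0.514%). At an unadjusted p under 0.05 there were 8 (13% of all probe sets), 2 (5.66%) and 7 (8.12%). With the block within genotype 0 passed in any of the 3 (6.17% of all probe sets between CD11b and CD27). The lowest adjusted p were those of Ndufc1 (0.208), Uqcr11 (0.763) and Atp5md (0.204). The median CD11b minus CD27 difference was -0.01, with 42 of 89 positive, against 0.02 and 57.6% for all genes. Cox4i1, which had 0.20 in WT cells (adjusted p = 0.512), had 0.35 in KO cells (adjusted p = 0.246). The largest KO differences were those of the complex I subunit Ndufa1 (0.45, adjusted p = 0.348) and the ATP synthase subunit Atp5k (0.36, adjusted p = 0.399). When KO replicate 3 was left out, 1 gene passed between CD11b and CD27 cells (1.72% of all probe sets), the Fo c-ring gene Atp5g1 (-0.49, adjusted p = 0.048). This was not particular to KO cells. In the same fit Atp5g1 was also lower in WT CD11b than in WT CD27 cells (-0.32, adjusted p = 0.0474). Sdhb passed there as higher in WT (0.26, adjusted p = 0.0456).

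**Figure D4:**
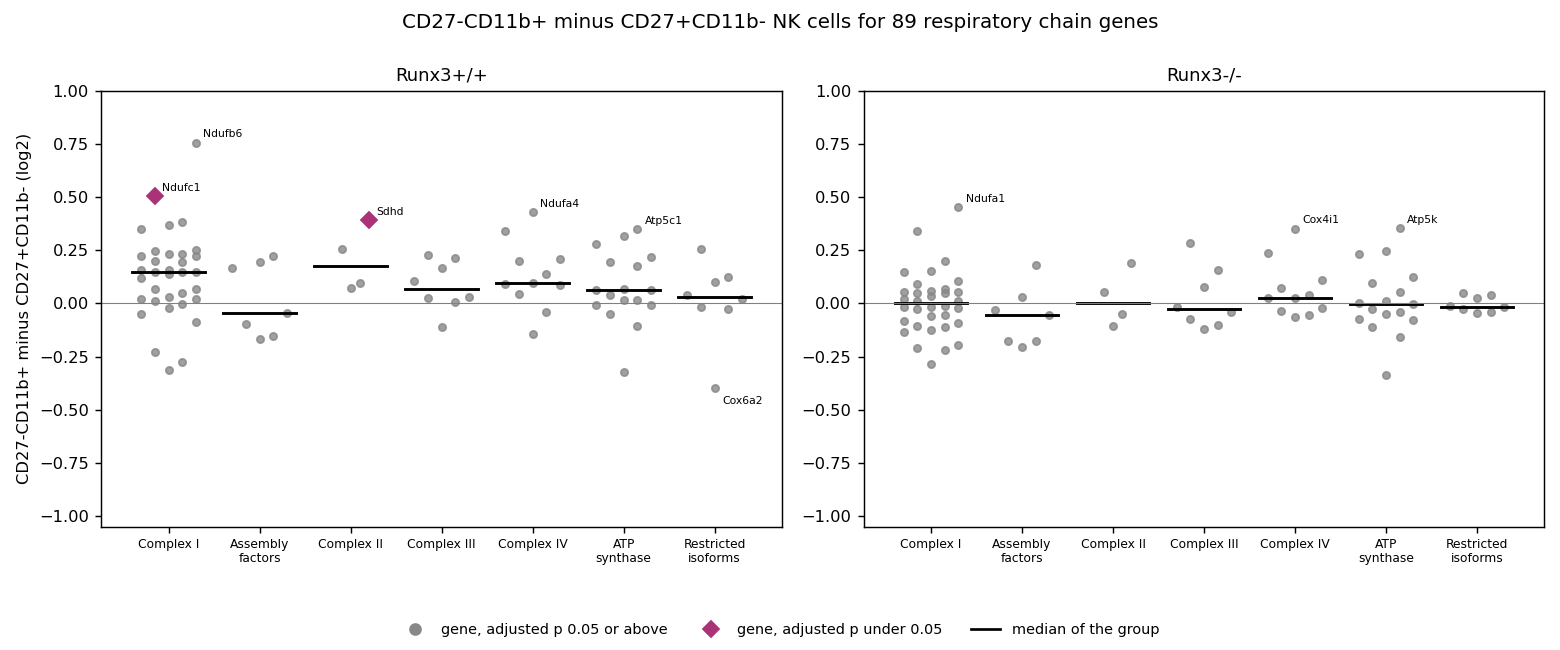
CD11b minus CD27 difference (log2) of each of the 89 genes by complex, in WT (left) and KO cells (right), with symbols as for the genotype comparison. Black median lines of complexes I and II lie at 0.15 and 0.18 in WT and at 0.00 in KO cells, and the 2 diamonds, Ndufc1 and Sdhd, are in the WT panel.

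The medians of the 2 genotypes differ in the plot of the subset difference, but single genes did not differ by the test of that difference. In limma's F test of the interaction of genotype and subset, 0 of the 89 genes passed (0.0113% of all probe sets), and 2 were below 0.05 before adjustment (4.18% of all probe sets). These were Sdhd (F of 5.99) and Uqcrc2 (F of 4.36), both with an adjusted p of 0.999988. The KO minus WT comparison in CD27 cells and the CD11b minus CD27 comparison in WT cells use the same WT CD27 arrays, so their leanings are not independent of each other.

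Genes of linked pathways were counted from lists beside the 89, against 2.8% of all probe sets higher and 5.28% lower in the average over subsets. Of 35 measured assembly factors outside the symbol rule, 0 rose and 1 fell in the average over subsets, Tmem126a, a complex I assembly factor (-0.34, adjusted p = 0.0187; without KO replicate 3 -0.28, adjusted p = 0.0527). Cox11, which delivers copper to complex IV, was lower in KO CD11b cells (-0.34, adjusted p = 0.0438). Of 24 other chain genes, 1 rose, Atpif1, the inhibitor of ATP hydrolysis by the ATP synthase (0.53, adjusted p = 0.00759; without KO replicate 3 0.37, adjusted p = 0.0167). Its arrays were 10.71, 10.75 and 10.89 in WT and 11.19, 10.94 and 11.65 in KO CD27 cells, and KO replicate 3 was highest in every subset. Etfb, a subunit of the electron transfer flavoprotein, was higher in CD11b than in CD27 cells in WT (0.76, adjusted p = 0.000228) and in KO (0.42, adjusted p = 0.0318).

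In the tricarboxylic acid cycle 1 of 16 genes rose in the average over subsets and 2 fell, and without KO replicate 3 0 passed (adjusted p of these 3 from 0.0834 to 0.121). Idh2, mitochondrial isocitrate dehydrogenase, was higher in KO cells by 0.55 log2 (adjusted p = 0.0331), while the oxoglutarate dehydrogenase subunits Ogdh and Dlst were lower (-0.15 and -0.11, adjusted p = 0.0401 and 0.0387). In WT cells Idh2 was 8.14, 7.25 and 7.78 in CD27 and 9.17, 8.82 and 9.43 in CD11b cells, a rise of 1.42 (adjusted p = 0.00392), and Dld rose by 0.38 (adjusted p = 0.0131). In KO cells Suclg2 was lower in CD11b than in CD27 cells (-0.66, adjusted p = 0.0416). Of 19 regulators of mitochondrial biogenesis and mitochondrial DNA expression, 0 rose and 1 fell in the average, Polrmt, the mitochondrial RNA polymerase (-0.15, adjusted p = 0.0279; without KO replicate 3 -0.14, adjusted p = 0.0963). When KO replicate 3 was left out, the growth regulator Myc passed in its place (-0.84, adjusted p = 0.00126). Of the 24 cell cycle genes, 12 rose and 0 fell, with a median difference of 1.81 log2. Leaving out KO replicate 3 gave a median of 0.78, with 16 higher and 1 lower.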

How the data were processed

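Total RNA of sorted NK cells was labelled with biotin and measured on Affymetrix Mouse Gene 1.0 ST arrays, per the labels. The authors deposited 1 log2 value per probe set and array. RMA and Partek are named in the submitters' processing notes without versions, and the deposited values span a range usual for log2 signals. Of 35399 probe sets, 21789 had 1 gene symbol in the platform annotation, 1621 several and 11989 were not listed; only the first kind was named. Symbols of all 89 genes equalled those of their gene identifiers in the RefSeq table. With limma 3.58.1 in R 4.3.3, a model with 6 group means was fitted to the 18 arrays together (12 residual and 2.18 prior degrees of freedom), and contrasts were tested two-sided after eBayes, with Benjamini-Hochberg adjustment over all probe sets and 0.05 as threshold. The procedure was tested on simulated data. The genes, lists, motifs and tests were chosen with earlier results of these data known. Named were the genes that passed, the largest difference of each complex in the main comparisons, a set of core and isoform genes, and up to 3 that passed per list. A few others (Ndufa6, Ndufa13, Ndufab1, Ndufc2, Ndufaf4, Uqcrh, Atp5g1, Atp5g2, Atp5g3, Atp5h, Atp5md and Myc) were named after their values were seen. Precision is limited by the number of arrays. Alternatives included other normalization, filters, weights, blocks and left-out arrays; Xist as a covariate and the block within genotype were added after the data were seen. The labels name no shared animals. Deviations of same-numbered arrays from their group means correlated above 0.1 in 17 of 18 pairs within a genotype and in 3 of 27 between genotypes, so the number was taken to pair subsets within a genotype (in 5 of 6 pairs of subsets) and not KO with WT; the test without the block is the one reported first.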

Additional observations from a re-analysis of the deposited data

How the results depend on the processing

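Of the counts of genes that passed, 152 were equal to or within 1.5 times the reported count and 35 were not. Most reported counts were 0, and those that stayed 0 are among the 152. The reported counts above 0, of 8 and of 2, ran from 0 to 16 and from 0 to 11. For KO against WT averaged over subsets the count of 8 came with 2862 of all 35399 probe sets passing. It became 13 after cyclic loess (2500 probe sets) and 16 with array weights (4217). It was 3 with a random block by genotype and replicate number (1587 probe sets, correlation 0.206) and 5 without KO replicate 3 (2233). With the arrays of a sample averaged first it was 0 (71 probe sets), and leaving out 1 array gave 5 to 15. For KO against WT in CD27 cells array weights gave 13 genes, with 3974 probe sets passing overall and a weight of 6.24 on CD27 KO replicate 1. The single-array ranges were 0 to 1 in DP and 0 to 3 in CD11b cells. For CD11b against CD27 in WT the count of 2 (1771 probe sets) became 1 with loess (1969) and 11 with weights (3725). It was 7 with the random block (3012 probe sets), 10 with the replicate block within genotype (3865) and 0 to 3 without 1 array. For CD11b against DP in WT the count of 0 (186 probe sets) became 1 above the median mean (164) and 2 with weights (393). It was 1 with the replicate number as a block (294 probe sets), 2 with the random block (489) and 3 with the block within genotype (851). Without KO replicate 3 it was 1, and without 1 array 0 to 2. Array weights (458 probe sets, 197 in the main fit) and the block within genotype each gave 1 for DP against CD27 in WT. Weights gave 4 for CD11b against CD27 in KO (2231 probe sets, 734 in the main fit). There leaving out KO replicate 3 gave 1 (608 probe sets) and single arrays 0 to 1. The median for KO against WT in CD27 cells was 0.16 after cyclic loess. Without 1 array the medians ran from 0.0683 to 0.1856 for KO against WT in DP, 0.049 to 0.1622 for CD11b against DP in WT, and -0.0706 to 0.0329 for DP against CD27 in WT. Of the refits of the 10 genes that passed, 158 kept and 66 lost the call and 0 reversed. Same-numbered arrays correlated in their deviations from -0.0094 to 0.642 within a genotype, where arrays of other numbers had a median of -0.179, and from -0.0726 to 0.344 between genotypes. The number as 1 replicate block shared by both genotypes gave 12 genes for the averaged comparison (3830 probe sets). It gave 3 for CD11b against CD27 in WT (2291 probe sets), where Sdhd was lost (adjusted p = 0.0626). The block within genotype kept Sdhd and Ndufc1 and changed no call in KO cells. Of 17 genes with several probe sets, 15 had 1 sign throughout in the averaged comparison and 12 in CD11b against CD27 in WT. The causes of these changes were not tested.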

Other observations

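Runx3 lies on chromosome 4, as do 6 of the 89 genes. Of the 5 with a promoter window, the 2 nearest to it passed in the averaged comparison of KO with WT, Sdhb at a distance of 5.81 Mb and Ndufs5 at 11.4 Mb (GRCm38.p6). Uqcrh, at 19 Mb, had a difference of -0.04, and Ndufb6 and Ndufaf4, at 94.8 and 110 Mb, had 0.19 and -0.20. Of 405 genes within 15 Mb of Runx3, 52 passed in that comparison (12.8%, 15 higher and 37 lower). Of 748 genes farther away on the chromosome 7.75% passed (18 higher and 40 lower). Of 18702 genes on other chromosomes 9.22% passed (540 higher and 1184 lower), so genes that fell outnumbered those that rose in each set. This pattern was noticed after the values were seen, and no test was made of it.

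Atpif1, the ATP synthase inhibitor, and Idh2 showed larger differences than most of the 89 chain genes. The Idh2 arrays of KO CD27 cells were at 8.87, 8.44 and 8.76, above the WT CD27 arrays at 8.14, 7.25 and 7.78, and in CD11b cells the genotypes overlapped at 9.40, 9.09 and 9.17 against 9.17, 8.82 and 9.43.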
